A study of Mus musculus with 4 samples.

Results

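Runx2 binding was examined at the loci of 10 genes for non-collagen glycoproteins of the extracellular matrix: *Fn1*, *Postn*, *Sparc*, *Tnc*, *Thbs1*, *Thbs2*, *Fbn1*, *Fbln1*, *Fbln5* and *Eln*. The genes were chosen by name, as 10 of 22380 protein-coding genes, and each was represented by its gene body with 20 kb added on either side. Every Runx2 peak that shared at least 1 bp with such a window was counted. The windows held 164 of 126383 peaks, which merged into 87 of 67703 regions. Occupancy had been measured by ChIP-Seq with an antibody to Runx2 in MC3T3-E1 cells, a preosteoblast line of mouse, while these cells proliferated (day 0), deposited matrix (day 9) and mineralized (day 28). The authors pooled 2 replicate libraries per stage before calling peaks, and for all 3 stages the control was input DNA pooled from 2 libraries of day 9 cells. A single list of peaks thus stands for each stage, and since no replicate error can be attached to a difference between stages, none was tested. The cells of the 3 groups were of the same line and carried no stated genetic alteration, and a cell line in culture is the only model here.

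Collagen fibrils give bone matrix its bulk, and the glycoproteins around them organize the fibrils, connect them to cells and hold growth factors. Fibronectin is laid down early and serves as a scaffold for the assembly of collagen and fibrillin. Matricellular proteins such as osteonectin, periostin, tenascin C and the thrombospondins act on the cells more than on the strength of the matrix. Fibrillin, fibulins and elastin build microfibrils and elastic fibres, and microfibrils also bind latent TGF-beta and BMPs. Runx2 is the transcription factor that commits cells to the osteoblast lineage, and it recognizes DNA with the core TGTGGT.

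The core motif TGTGGT, read on both strands, occurred within 50 bp of the centre of 26 of the 87 regions of these genes. The following sequences show the highest-ranked such region of 6 of the genes, with the bases up to 50 bp on either side of the region centre. They are mm9 sequence on the strand of the gene, with TGTGGT or its reverse complement ACCACA in capitals, and are given to show where the core lies within bound DNA of this gene group.

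Fbn1, intron 43, chr2:125163082-125163182, minus strand: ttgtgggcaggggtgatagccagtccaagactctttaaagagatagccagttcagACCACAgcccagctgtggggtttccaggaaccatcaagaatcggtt
Sparc, intron 1, chr11:55228067-55228167, minus strand: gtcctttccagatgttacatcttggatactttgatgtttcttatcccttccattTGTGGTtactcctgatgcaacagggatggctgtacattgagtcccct
Fbln1, intron 13, chr15:85073609-85073709, plus strand: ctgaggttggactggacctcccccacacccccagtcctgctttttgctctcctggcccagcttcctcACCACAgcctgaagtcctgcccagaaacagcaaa
Fbln5, intron 4, chr12:103040792-103040892, minus strand: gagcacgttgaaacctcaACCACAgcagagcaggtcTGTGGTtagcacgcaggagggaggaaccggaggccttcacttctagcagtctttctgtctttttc
Thbs2, upstream, chr17:14838337-14838437, minus strand: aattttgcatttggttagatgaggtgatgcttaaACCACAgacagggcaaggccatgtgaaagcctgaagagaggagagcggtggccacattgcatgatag
Thbs1, exon 3, chr2:117938929-117939029, plus strand: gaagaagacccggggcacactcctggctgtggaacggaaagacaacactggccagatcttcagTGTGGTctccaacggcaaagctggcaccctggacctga

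Of these 6 sequences, the one in *Fbln5* holds the core 2 times, on opposite strands, and the others hold it once. *Postn*, *Tnc* and *Eln* had no region with the core within 50 bp of its centre. The windows before the start sites of *Fn1* and *Thbs1*, shown further on, hold no match.

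Each of the 10 genes had at least 1 Runx2 peak in its window at each time point. Among all protein-coding genes, 65.0% had a peak at day 0, 76.9% at day 9 and 71.2% at day 28. Together their windows contained 32, 74 and 58 peaks at days 0, 9 and 28. At day 9 this was 2.31 times the number at day 0, where the whole list was 2.38 times as long. The number at day 28 was 0.784 times that at day 9, against 0.666 times for the whole list. The group was thus close to the length of the lists at day 9 and somewhat above it at day 28. Without *Fbn1*, the gene with the most peaks and with 20 at both later days, the numbers were 22, 54 and 38. The day 28 number was then 1.73 times that at day 0, against 1.81 with all 10 genes and 1.58 for the whole list. Leaving out *Sparc* instead gave 2.04.

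**Figure D1:**
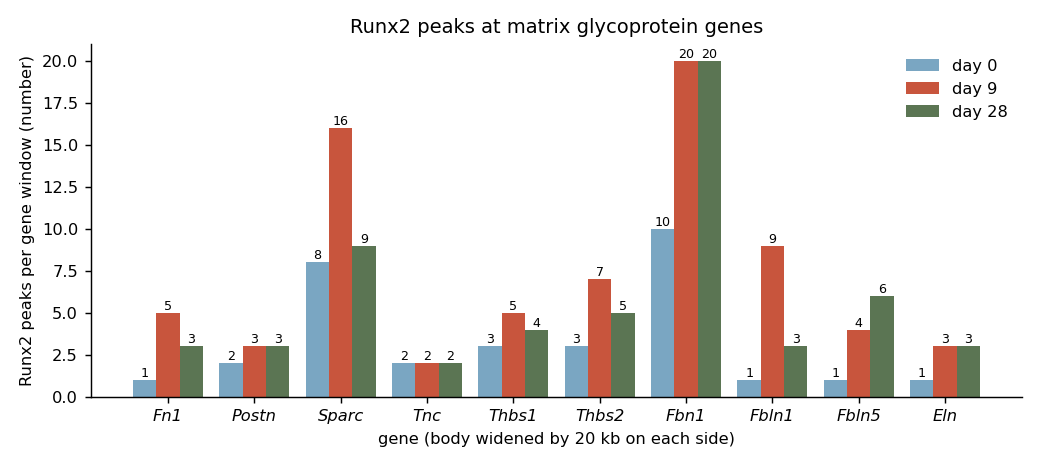
Number of Runx2 peaks in the window of each gene (gene body and 20 kb on either side) at day 0, day 9 and day 28, with 1 pooled peak list per time point and no error bars. *Fbn1* reaches 20 peaks at days 9 and 28 and *Sparc* 16 at day 9, while *Tnc* has 2 at each time point.

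More peaks were found at day 9 than at day 0 for 9 of the 10 genes, and *Tnc* had equal numbers. Counted as regions with a peak, 8 of the 10 had more at day 9, since *Thbs1* was then level too. Of all protein-coding genes 60.3% had more peaks at day 9 than at day 0, and the share counted as regions was not determined. Fewer peaks at day 28 than at day 9 were found for 5 genes (*Fn1*, *Sparc*, *Thbs1*, *Thbs2* and *Fbln1*), against 50.2% of all genes. *Fbln5* alone had more at day 28 than at day 9, and the other 4 had equal numbers. Compared with day 0, 9 genes had more peaks at day 28, against 41.1% of all genes. The shares over all genes were not matched for window length, whose median was 92.2 kb for the 10 genes and 55.4 kb for all. They also include 4738 of the 22380 genes that had no peak at any time point.

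These counts depended on the length of the lists. When the lists of days 9 and 28 were shortened to the 25457 peaks with the highest scores, so that they were as long as the day 0 list, the windows held 32, 26 and 40 peaks at days 0, 9 and 28. *Fn1*, *Fbln1* and *Eln* were then the 3 genes with more peaks at day 9 than at day 0, against 22.9% of all genes. No member had fewer peaks at day 28 than at day 9, against 17.0% of all genes. With a p-value of 1e-20 required of every peak there were 18, 35 and 42, so that day 28 had more peaks than day 9 in both settings. With lists of equal length *Thbs1* and *Tnc* had no peak at day 9, *Fbn1* had 10, 9 and 14, and *Sparc* had 8, 6 and 6.

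Long windows can hold more peaks, so numbers were also expressed per 100 kb. *Sparc* had the highest density of the group, with 12.2 peaks per 100 kb at day 0, 24.4 at day 9 and 13.7 at day 28. This placed it at percentiles from 97 to 98.5 of all protein-coding genes. *Fbn1* had more peaks than *Sparc* but a density of 4.04, 8.08 and 8.08 peaks per 100 kb, since its window spans 247 kb. *Tnc* was the lowest at day 9, with 1.98 peaks per 100 kb at each time point, and by density it was at percentiles 55.3, 35.3 and 44.4. The median density of the 10 genes was 2.42, 6.05 and 4.81 peaks per 100 kb at days 0, 9 and 28. The corresponding medians were 1.69, 3.49 and 2.33 over all genes.

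**Figure D2:**
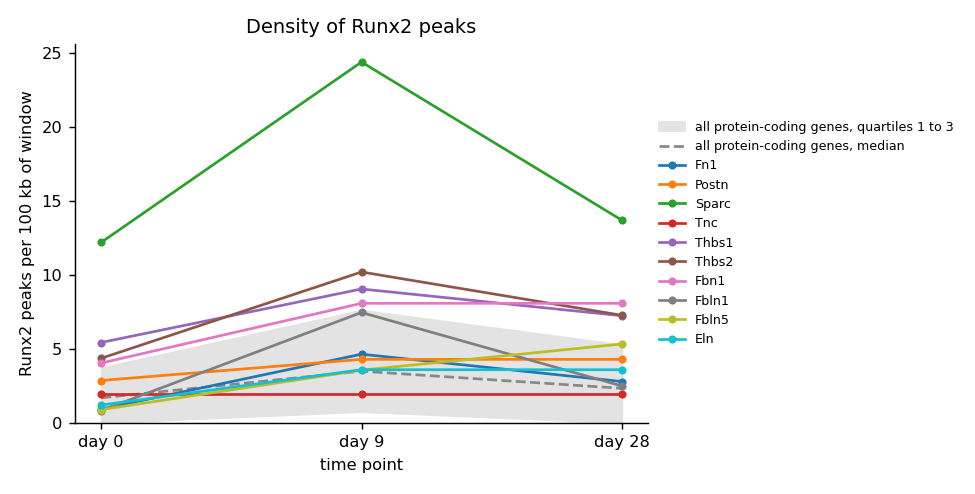
Runx2 peaks per 100 kb of window for each gene at day 0, day 9 and day 28, with the median (dashed line) and the range from quartile 1 to quartile 3 (grey) of all 22380 protein-coding genes. *Sparc* lies above the other genes at each time point, and *Tnc* lies below the median of all genes at days 9 and 28.

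A list of 70 other genes for non-collagen matrix glycoproteins, chosen by textbook function, had similar medians. Their median numbers of peaks were 2, 6 and 4 over time, against 2, 5 and 3.5 for the 10 genes and 1, 2 and 2 for all protein-coding genes. Of the 70 genes, 60 had more peaks at day 9 than at day 0, against 60.3% of all genes, 7 had equal numbers and 3 had fewer. Fewer peaks at day 28 than at day 9 were found for 43 of the 70, against 50.2% of all genes. *Thbs4* and *Frem1* were the 2 genes of the list with no peak at any time point, against 4738 of all 22380 genes. Median windows were 79.1 kb for the list and 55.4 kb for all genes, and the shares were not matched for this. In the families of the members, *Thbs3* had 6, 9 and 9 peaks, *Fbln2* had 3, 20 and 11, and *Fbn2* had 1, 6 and 4. These examples were chosen after their values were seen, and *Efemp1* of the same list went the other way, with 4, 1 and 1. As a check of the lists, 6 known targets of Runx2 in osteoblasts were looked at in windows of the same kind. *Bglap2* (osteocalcin) had 0, 12 and 10 peaks, *Sp7* had 5, 13 and 8, *Runx2* itself had 11, 17 and 13, *Spp1* had 4, 6 and 7, and *Ibsp* had 1, 5 and 6. *Mmp13* had 0, 1 and 0.

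The genes differed in where the regions lay, a difference given here as counts without a test. Of the 47 regions of the 4 elastic fibre genes (*Fbn1*, *Fbln1*, *Fbln5* and *Eln*), 41 had their centre in the gene body, 5 in the 20 kb downstream and 1 in the 20 kb upstream. This corresponded to 10.2 regions per 100 kb of body and 1.25 per 100 kb upstream. Without *Fbn1* the values were 8.14 and 1.67, and *Eln* was an exception, with 5.00 upstream and 4.60 in the body. The 5 matricellular genes (*Postn*, *Sparc*, *Tnc*, *Thbs1* and *Thbs2*) had the opposite order, with 17 of 35 regions upstream, 10 in the body and 8 downstream, or 17.0 regions per 100 kb upstream and 6.23 per 100 kb of body. *Sparc* was an exception among them, with about equal densities in the 3 places, and without it the values were 15.0 upstream and 2.22 in the body. *Thbs1* was also nearly level between upstream (15.0) and body (13.1). Regions over a start site were placed by their centre. It lay at -67, -732 and -17 bp from the start for *Postn*, *Thbs1* and *Thbs2*, counted as upstream. For *Sparc*, *Fbn1* and *Fbln5* it lay at 615, 508 and 9 bp, counted as body. Over all protein-coding genes the density was 5.28 upstream, 3.95 in the body and 5.58 downstream.

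**Figure D3:**
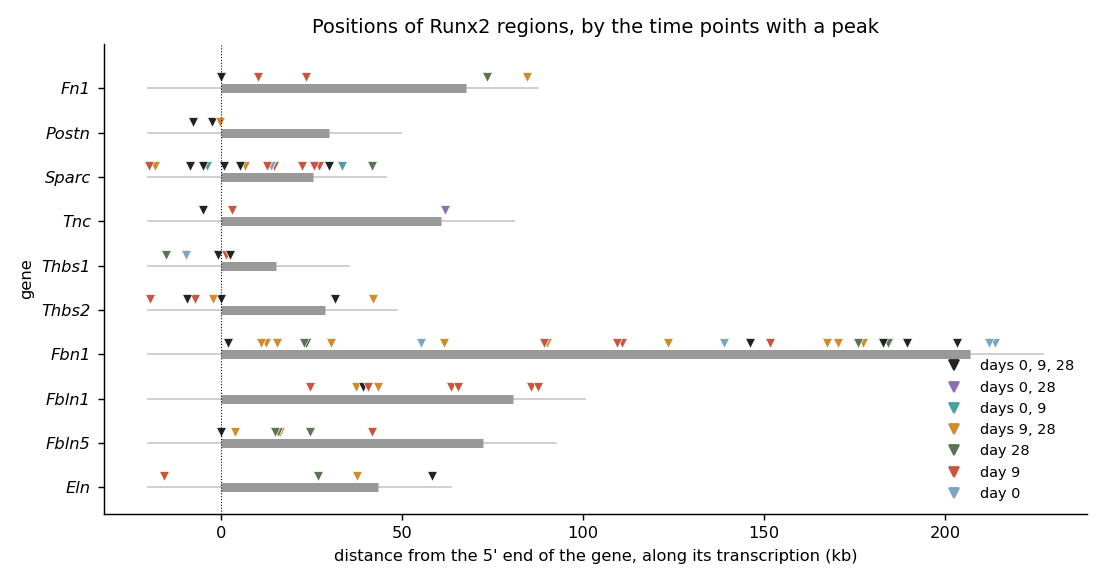
Position of the centre of each of the 87 Runx2 regions, in kb from the 5' end of the gene along its transcription (thick grey bars are gene bodies, thin lines the 20 kb on either side), coloured by the time points at which the region had a peak. Regions of *Fbn1*, *Fbln1* and *Fbln5* lie in or beyond the gene body, while those of *Postn* lie upstream or at the start.

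By the centre of each peak, introns held 12 of 32 peaks at day 0 (37.5%, 95% interval 21.1% to 56.3%), 39 of 74 at day 9 (52.7%, 40.7% to 64.4%) and 35 of 58 at day 28 (60.3%, 46.6% to 73.0%). The shares of introns among all peaks were 36.3%, 42.9% and 40.6%. The 2 sets are unlike, since windows around genes leave out remote intergenic peaks, so their location shares are not directly comparable. At day 9 intergenic peaks were 9.46% of the peaks of these genes and 25.4% of all peaks. *Fbn1*, the longest of the genes, held 24 of the 48 regions that lay in an intron of a member. Promoters (1000 bp upstream to 150 bp downstream of a start site, outside exons and introns) had 2 peaks at day 0, then 3 and then 4, which is 6.25%, 4.05% and 6.90% of the peaks of these genes against 10.9%, 4.52% and 6.36% of all peaks. When a peak was given to a promoter that any of its bases touched, the promoter share was 21.9%, 13.5% and 17.2%, against 35.7%, 20.2% and 27.3% of all peaks. These intervals are exact binomial and cover counting error only, and peaks of one gene are not independent draws.

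Grouped by the time points with a peak, 23 regions (26.4%, 95% interval 17.6% to 37.0%) were bound at all 3 time points, against 27.4% of all regions. Each of the 10 genes had at least 1 such region, which for *Eln* lay in the promoter of the neighbour *Limk1*. How many of all protein-coding genes have one was not determined, so the count only describes the group. Another 24 regions (27.6%, 18.5% to 38.2%) had a peak at day 9 alone, against 34.5% of all regions, and 21 (24.1%, 15.6% to 34.5%) at days 9 and 28, against 21.1%. There were 10 regions with a peak at day 28 alone (11.5%, against 7.59% of all regions) and 6 at day 0 alone (6.90%, against 5.60%). The interval of each of the 3 larger shares included the share over all regions. Of the 32 regions with a day 0 peak, 25 also had a day 9 peak (78.1%, against 79.2% over all regions).

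The authors' score of a peak is 10 times the negative log10 of its p-value and depends on read depth, so a peak was ranked by the percentage of its own list that it exceeded, with ties shared. A score percentile compares a peak with other peaks of the same day and does not measure a change of binding at one place. Peaks in the 10 windows had median percentiles of 39.6, 34.4 and 51.5 at days 0, 9 and 28. The lowest and highest were 1.90 and 90.7 at day 0, 1.15 and 97.4 at day 9, and 0.724 and 97.8 at day 28. The 23 regions bound at all 3 time points ranked higher, with medians of 48.8, 59.2 and 57.9, but lower than such regions over the genome, with 59.8, 79.5 and 73.2. Of the 23, 15 had a higher percentile at day 9 than at day 0, against 75.5% of all such regions. A higher percentile at day 28 than at day 9 was found in 12, against 33.4%.

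**Figure D4:**
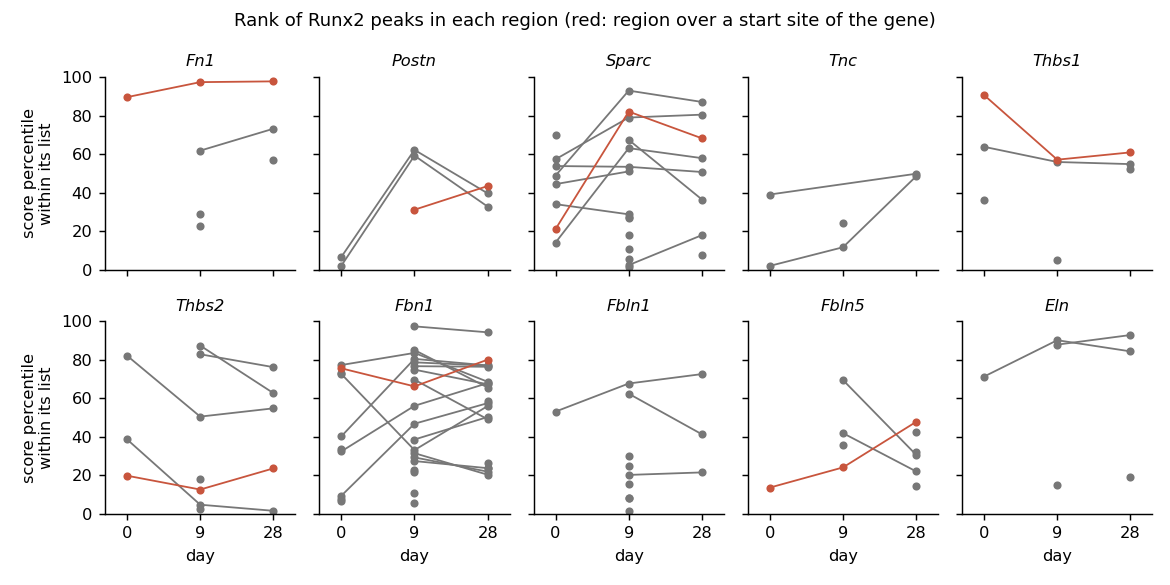
Score percentile within its own list of the highest-scoring peak of each region at day 0, day 9 and day 28, with 1 panel per gene and a line joining the peaks of 1 region. Red marks regions over an annotated start site of the gene. The start-site region of *Fn1* is at 89.6, 97.4 and 97.8, whereas that of *Thbs1* is at 90.7 at day 0 and at 57.1 and 60.9 later.

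*Fn1* (ENSMUSG00000026193, chromosome 1, 71632094 to 71699774, minus strand) encodes fibronectin, a dimeric glycoprotein that cells assemble into fibrils through integrins. In its window 1 peak was found at day 0, 5 were found at day 9 and 3 at day 28, from 5 regions. The region over the start site (71699005 to 71700621) was at percentile 89.6 at day 0, 97.4 at day 9 and 97.8 at day 28, the highest of the group at day 28 and level with 1 *Fbn1* region at day 9. Its peaks at days 9 and 28 had the score of 3100, a tie with 2699 peaks in all at day 9 and 1468 at day 28. The annotation used also places an exon of the gene *Apol7d* at the centre of this region, so its peaks were counted as exonic and not as promoter peaks, and the correctness of this exon was not examined. The 2 regions within the gene ranked low, at percentile 28.7 in intron 14 and 22.9 over exon 7, each at day 9 alone. The other 2 lay outside *Fn1*, in the neighbouring gene *Atic*.

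The 250 bases before the start sites of *Fn1* and *Thbs1* are shown because the regions over them held the highest-ranked peak of the group at day 28 and at day 0, respectively. Neither contains TGTGGT or ACCACA, so no letters are in capitals, and the core was found in the same 250 bases of 12.8% of the 22380 protein-coding genes.

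Fn1, chr1:71699775-71700024, minus strand: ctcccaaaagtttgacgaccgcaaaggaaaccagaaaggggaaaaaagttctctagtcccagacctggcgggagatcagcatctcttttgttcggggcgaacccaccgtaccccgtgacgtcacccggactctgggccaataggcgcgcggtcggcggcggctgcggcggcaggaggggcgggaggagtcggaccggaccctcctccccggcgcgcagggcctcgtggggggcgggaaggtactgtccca
Thbs1, chr2:117937362-117937611, plus strand: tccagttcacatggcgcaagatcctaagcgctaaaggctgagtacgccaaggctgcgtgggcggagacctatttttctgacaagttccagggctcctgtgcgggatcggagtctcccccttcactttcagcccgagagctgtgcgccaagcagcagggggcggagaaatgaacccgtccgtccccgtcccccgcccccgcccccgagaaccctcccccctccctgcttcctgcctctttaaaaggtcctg

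*Postn* (ENSMUSG00000027750, chromosome 3, 54165031 to 54194961, plus strand) encodes periostin, a matricellular protein of periosteum and other collagen-rich tissue. It had 2, 3 and 3 peaks at days 0, 9 and 28, all upstream or over the start, and no region in the remaining window. A region 7629 bp upstream was at percentile 1.92 at day 0, 59.2 at day 9 and 32.7 at day 28. A second region, 2500 bp upstream, had nearly the same course, at 6.50, 62.2 and 39.6. Both thus stood near the bottom of the day 0 list and above the middle of the day 9 list. The region over the start had no day 0 peak and was at percentile 31.1 at day 9 and 43.4 at day 28.

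*Sparc* (ENSMUSG00000018593, chromosome 11, 55208002 to 55233582, minus strand) encodes osteonectin, an abundant collagen- and calcium-binding protein of bone. It had 8, 16 and 9 peaks on the 3 days, in 17 regions spread over the whole window, and no other protein-coding gene lies within that window. The highest-ranked region lay 4974 bp upstream of the start (55238000 to 55239111), at percentile 48.8 at day 0, 93.0 at day 9 and 87.1 at day 28. Next to it, 8403 bp upstream, a region was at 57.3, 79.0 and 80.5. A region of 2920 bp spanned the start and part of intron 1, with 1 peak at day 0 and 2 peaks at each later day, and was at percentile 21, 82.1 and 68.2. Neither upstream region contained TGTGGT. An intron 1 region 5283 bp downstream of the start, whose sequence is shown above, had the core at its centre and was at 14.0, 63.1 and 57.9. The remaining region bound at all 3 time points, downstream of the gene, had similar ranks of 53.8, 53.4 and 50.7. Of the 17 regions, 6 had a peak at day 9 alone, with percentiles of at most 27.1.

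*Tnc* (ENSMUSG00000028364, chromosome 4, 63620819 to 63681760, minus strand) encodes tenascin C, a multi-armed glycoprotein that modulates cell adhesion to fibronectin. It had 2 peaks at each time point, but in 3 different regions. Only the region 4936 bp upstream was bound throughout, at percentile 1.90 at day 0, 11.6 at day 9 and 48.5 at day 28. A region just past the end of the gene had peaks at day 0 (39.0) and day 28 (49.8) and none at day 9. The exon 2 region had a peak at day 9 alone (24.2). All *Tnc* peaks thus lay below the middle of their lists, and no region covered the start site.

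*Thbs1* and *Thbs2* encode thrombospondins 1 and 2, trimeric matricellular proteins of which the first also activates latent TGF-beta. *Thbs1* (ENSMUSG00000040152, chromosome 2, 117937612 to 117952869, plus strand) had 3, 5 and 4 peaks. Its start-site region was covered by a single peak of 2281 bp at day 0 (percentile 90.7, the highest of the group that day). At day 9 the same stretch held 3 narrower peaks, at percentiles 57.1, 31.8 and 54.1, and at day 28 it held 2, at 47.0 and 60.9. The number of peaks here was therefore larger at the days on which each ranked lower, and the higher count of *Thbs1* at day 9 than at day 0 comes from this split alone. Counted as regions, *Thbs1* had 3 at each time point. The region in intron 4, also bound throughout, was at 63.8, 55.9 and 54.8. A region 9664 bp upstream had a peak at day 0 alone (35.9), one 14989 bp upstream at day 28 alone (52.3), and the exon 3 region at day 9 alone (4.80).

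*Thbs2* (ENSMUSG00000023885, chromosome 17, 14802507 to 14831269, minus strand) had 3, 7 and 5 peaks in 7 regions, of which 5 were upstream and none was centred in the gene body. The upstream regions also lie near the predicted gene *Gm3222*. The highest-ranked region at day 9 was 2202 bp upstream, absent at day 0, and at percentile 87.4 at day 9 and 62.7 at day 28. A region centred at -9216 bp from the start was at 82.2 at day 0, 50.5 at day 9 and 54.8 at day 28, an order shared with the start-site region of *Thbs1*. The start-site region of *Thbs2* ranked low throughout, at 19.8, 12.6 and 23.6. Downstream of the gene, 1 region was at 38.7, 4.72 and 1.55, and another had no day 0 peak and was at 82.9 and 76.2 at days 9 and 28. The 2 other upstream regions had a peak at day 9 alone, at 18.2 and 2.59.

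*Fbn1* (ENSMUSG00000027204, chromosome 2, 125126330 to 125333729, minus strand) encodes fibrillin 1, the main component of microfibrils. It had 10, 20 and 20 peaks at days 0, 9 and 28, in 27 regions, and by number of peaks it was at percentiles 99.3, 98.9 and 99.8 of all genes. By density it was at 77.4, 76.5 and 87.2. The highest-ranked region lay in intron 43 (125162598 to 125163666), had no day 0 peak, reached the tied score of 3100 at day 9 (percentile 97.4) and was at 94.3 at day 28. The core ACCACA lies 7 bp from its centre, and at 168989 bp from the *Fbn1* start it is nearer to the start of *Dut*, 89914 bp away. Of the 27 regions, 26 had their nearest protein-coding start site in another gene, either *Dut* or the predicted gene *Gm9913*, which overlaps the start of *Fbn1*.

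*Fbn1* had 6 regions bound at all 3 time points. The one over the start site was at percentile 75.6, 66.2 and 80.1 on the 3 days. In intron 28 a region was at 77.3, 83.6 and 68.6, and in intron 1 another was at 40.2, 80.5 and 77.1. The regions in introns 53 and 48 ranked higher at each later day, at 9.32, 46.8 and 57.5 and at 32.4, 56.1 and 67.9. The region in intron 63, by contrast, was highest at day 0, at 72.7, 33.1 and 56.0. Another 10 regions had peaks at days 9 and 28 and none at day 0, the most of any gene in the group. The core was within 50 bp of the centre in 11 of the 27 regions.

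*Fbln1* (ENSMUSG00000006369, chromosome 15, 85036379 to 85116965, plus strand) encodes fibulin 1, which binds fibronectin and elastic fibres. It had 1 peak at day 0, 9 at day 9 and 3 at day 28. No region covered its start site, and the nearest to it was 24545 bp downstream, in intron 5. The 1 region bound throughout, in intron 14 (85074828 to 85076521), was at percentile 53.1, 67.7 and 72.6 in order of time. Of the 9 regions, 6 had a peak at day 9 alone, at percentiles from 1.62 to 29.8. The core lay within 50 bp of the centre in 5 of the 9, including the intron 13 region shown above, which was at 62.4 at day 9 and 41.3 at day 28.

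*Fbln5* (ENSMUSG00000021186, chromosome 12, 102984775 to 103057265, minus strand) encodes fibulin 5, which guides elastin onto microfibrils. It had 1, 4 and 6 peaks, all in the gene body, in a window that also reaches the neighbouring gene *Trip11*. The region over the start was at percentile 13.6 at day 0, 24.1 at day 9 and 47.8 at day 28. A region in intron 1, 3832 bp from the start, was at 69.5 at day 9 and 30.6 at day 28. Intron 4 held the other 5 regions, of which 3 had a peak at day 28 alone (42.3, 32.3 and 14.5), 1 at day 9 alone (35.6) and 1 at both days (41.9 and 22.0). The last of these is the region with the core on both strands.

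*Eln* (ENSMUSG00000029675, chromosome 5, 135179651 to 135223111, minus strand) encodes tropoelastin, the monomer of elastin. It had 1, 3 and 3 peaks, and no region covered its start site. The only region bound throughout, at percentile 71.3 at day 0, 90.2 at day 9 and 84.4 at day 28, lay past the end of *Eln* in the promoter of the neighbour *Limk1*, 342 bp from its start. Within *Eln* the highest-ranked region was in intron 28 (135184962 to 135185979), absent at day 0 and at 87.9 and 92.9 at days 9 and 28. The other regions ranked low, with a peak in intron 16 at day 28 (19.2) and a peak 15771 bp upstream at day 9 (15.2).

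In all, 7 of the 10 genes had a region over an annotated start site, and *Tnc*, *Fbln1* and *Eln* had none. The share of all protein-coding genes with such a region was not determined, so this count is a description alone. These 7 regions differed widely in rank, from percentile 12.6 (*Thbs2*) to 97.4 (*Fn1*) at day 9. None of the 7 had the core within 50 bp of its centre (0 of 7, upper 95% limit 41.0%), while 26 of the other 80 did (32.5%, 22.4% to 43.9%). The 7 regions were wider, with a median of 1617 bp against 722 bp for the other 80. Whether width bears on this contrast was not tested, and start-site regions of other genes were not set beside it. Somewhere in the region the core was present in 6 of the 7.

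Over all 87 regions the core was at the centre in 29.9% (95% interval 20.5% to 40.6%), against 24.2% of all regions. In flanks 450 to 550 bp before and after the centre, read along the genome, it was present in 11.5% and 5.75% of the regions of these genes and in 7.41% and 7.29% of all regions. With the core counted anywhere in the region the shares were 77.0% (66.8% to 85.4%) and 64.0%. Median widths were 734 bp and 702 bp. Per kb of region the order was reversed, with 1.51 matches of the core in the regions of these genes and 1.77 in all regions. The interval around 77.0% lay above the share of all regions, but it treats regions of one gene as independent draws. *Fbn1*, with 27 of the 87 regions, had the core in 23 (85.2%), and *Sparc* in 10 of 17 (58.8%). The share without *Fbn1* was not determined. The centre of a merged region can lie off the place of strongest binding, and centred on the single peaks of day 9 the share was 24.3% of 74 peaks (15.1% to 35.7%), against 25.4% of all day 9 peaks. On the other days the values lay on either side of the background, with 9.38% of 32 peaks (1.98% to 25%) against 16.0% at day 0 and 27.6% of 58 peaks (16.7% to 40.9%) against 20.9% at day 28. For the core at the centre, of regions or of peaks, a difference from the background was not detectable at these numbers.

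**Figure D5:**
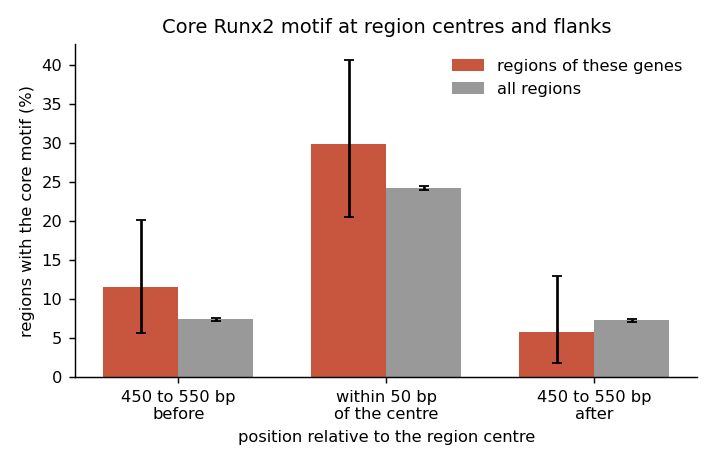
Share of regions with TGTGGT on either strand within 50 bp of the region centre and in flanks 450 to 550 bp before and after it along the genome, for the 87 regions of these genes and for all 67703 regions, with exact binomial 95% intervals. The share at the centre (29.9% and 24.2%) is above that of the flanks in both sets.

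The core at the centre was also set beside the rank of a region. Of the 70 regions with a day 9 peak, 14 were at or above percentile 75 (all regions 25.8%), and 2 of the 14 had the core at the centre (14.3%, 1.78% to 42.8%). Of the 56 below percentile 75, 20 had it (35.7%, 23.4% to 49.6%). The intervals overlapped for the 10 genes, and the shares over all regions were 17.8% and 27.1%. The 14 high-ranked regions belonged to *Fbn1* (6), *Sparc* (3), *Thbs2* (2), *Eln* (2) and *Fn1* (1), and their median width of 1039 bp compares with 657 bp for the others.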

How the data were processed

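The authors used CASAVA (1.6), mapped reads of 36 bases to mm9 with Bowtie (0.12.8), pooled the 2 libraries of each stage, called peaks with MACS (1.4.1) against pooled input and kept those with a p-value of at most 1e-10. In the deposited lists the score equals -10 times log10 of that p-value, and here it served for ranks within a list and for thresholds. The lists hold no read counts per peak. Raw read totals, given in the study's supplement, differ between stages and were largest at day 0, the stage with the shortest list, and their part in the numbers and scores of peaks was not tested.

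Locations used GENCODE M1 protein-coding transcripts on NCBIM37, the assembly of mm9, by peak centre in the order exon, intron, promoter, TTS, upstream, intergenic. Sequences were read from NCBIM37, positions are counted from 1, and distances run to the nearest annotated start site of the gene. The members and lists were chosen with earlier results of these data known. Named were each member's highest-ranked region, regions over a start site or bound throughout, all regions of members with fewer than 8, regions with a printed sequence, and neighbours. The division by role, the examples from the wider list, the regions of *Fbn1*, *Sparc* and *Fbln1* named beyond this rule and the contrast of high and low ranks were chosen after their values were seen. Intervals (Clopper-Pearson, 95%) cover counting error only. The procedures ran in Python 3.11.15 with NumPy 2.4.6 and SciPy 1.17.1, were tested on simulated data, and figures were drawn with Matplotlib 3.10.9. Alternatives covered thresholds, list length, windows, overlap, location order and motif. One sequence and the ranks of 2 regions in the *Fn1* window are not reported here. Input libraries and read tracks were not analysed here.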

Additional observations from a re-analysis of the deposited data

How the results depend on the processing

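The number of peaks in the 10 windows at days 0, 9 and 28 was 32, 74 and 58. Requiring a p-value of 1e-20 gave 18, 35 and 42, one of 1e-50 gave 5, 19 and 19, and one of 1e-100 gave 0, 10 and 7. Lists of equal length gave 26 at day 9, gene bodies alone gave 17 at day 0 and 49 at day 9, and 50 kb of widening gave 51 at day 0. With 100 kb the numbers were 64, 132 and 108. Assignment to the nearest start site gave 55 at day 0. Leaving out *Fbn1*, added after seeing the data, gave 38 at day 28. Day 9 was highest, or level with day 28, and day 0 lowest in 12 of 14 settings, the exceptions being 1e-20 and equal lists. Genes with more peaks at day 9 than at day 0 numbered 9, but 5 at 1e-100 and 3 with equal lists. Those with fewer at day 28 than at day 9 numbered 5, but 1 at 1e-20, 2 at 1e-50, 2 at 1e-100 and 0 with equal lists. Genes with a peak numbered 4 at day 0 and 6 at day 28 at 1e-50, and 0, 5 and 4 at days 0, 9 and 28 at 1e-100. The median percentile of the members among genes by peak number was 67.2, 73.4 and 73.6 at days 0, 9 and 28. It was 34.4 and 52.1 at days 0 and 9 at 1e-50, and 44.0, 45.7 and 28.8 at 1e-100. With the nearest start site it was 89.7 at day 0 and 94.2 at day 28.

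The share of regions bound at all 3 time points was 8.33% at 1e-50, 0% of 12 regions at 1e-100 and 9.48% with 100 bp around the centres. The share at days 9 and 28 was 40.4% at 1e-20, 58.3% at 1e-50 and 41.7% at 1e-100. The share at day 9 alone was 4.26%, 12.5% and 41.7% at these thresholds and 3.92% with equal lists. The core was at the centre in 16.7% at 1e-50, 8.33% at 1e-100 and 19.6% with equal lists, and anywhere in 77.0%. Counting any base of a peak gave promoter shares of 21.9%, 13.5% and 17.2% at days 0, 9 and 28 and an intron share of 46.6% at day 28. In the other 121 cases a count was within 1.5 times, a share within its interval, or a median percentile within a set shift. That shift was the standard deviation of the percentiles across the members in the main setting. The cause of these shifts was not tested. No paired analysis was possible because replicates were pooled before peaks were called. Reads per peak are not in the lists, and regions missing from a list may lie just under its threshold.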
